A study of Mus musculus with 6 samples.

Results

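The pyruvate dehydrogenase complex and the enzymes that switch it on and off were followed in pressure-overloaded mouse hearts with and without miR-27b-3p. The 10 genes were Pdha1, Pdhb and Dlat of the complex, the kinases Pdk1, Pdk2, Pdk3 and Pdk4, the phosphatases Pdp1 and Pdp2 and the phosphatase regulator Pdpr. They were taken by gene symbol from the 17570 Entrez Gene IDs in the expression tables, and all 10 were found. The difference between the genotypes in these same hearts was known when the genes were chosen, so their values, intervals and counts past a limit are given as a description, and no p is given for any of them.

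Heart RNA was sequenced from 3 WT/TAC and 3 KO/TAC mice of the C57BL/6J strain. WT/TAC mice were wild type, and KO/TAC mice carried a systemic knockout of miR-27b-3p, made with TALENs as a deletion of 10 bases. All 6 hearts, 1 library each, had undergone transverse aortic constriction (TAC), a band around the aortic arch that loads the left ventricle, for 8 weeks after an operation at 10 to 12 weeks of age. Because every heart was banded, no value describes an unoperated heart. The RNA is that of heart tissue, so no value describes a single cell type, and the deletion is in every cell of the mouse. The sex of the mice is not given in the sources used here. Expression was measured as FPKM, fragments per kilobase of transcript and per 1000000 fragments, which can be compared between genes because it is scaled by length.

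Pyruvate dehydrogenase converts pyruvate from glycolysis and lactate into acetyl-CoA inside the mitochondrion and so sets how much carbohydrate the heart burns. Its kinases phosphorylate the E1α subunit and switch the complex off, and its phosphatases remove the phosphate and switch it on. In heart muscle Pdk4 is known to be induced by fasting and fatty acids through PPARα, a nuclear receptor for fatty acids. The mRNA levels given here do not show the phosphorylation or the activity of the complex.

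The sequences of the deleted miRNA and its paralog are shown because a miRNA recognises its targets mainly through its seed, bases 2 to 8, which is in capitals. The sequences and positions come from RefSeq on GRCm38.p6, chr13:63300760-63300780 on the plus strand for miR-27b-3p and chr8:84208727-84208747 on the plus strand for miR-27a-3p.
mmu-miR-27b-3p: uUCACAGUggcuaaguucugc
mmu-miR-27a-3p: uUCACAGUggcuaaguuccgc
Both carry the same seed. The site that pairs with it, ACTGTGA read on the mRNA strand, was looked for in the 3′ UTR of each of the 10 genes, taking the longest one annotated. It was found in 1 of them, Pdha1, at base 786 of a 3′ UTR of 1574 bases, and the window around it is shown with the site in capitals (chrX:160122991-160122997 of GRCm38, minus strand).
Pdha1 site: aggcttggctcACTGTGAagactcctgca
The site is followed by an A, which makes it the longer, 8-base kind. Among the 12167 tested genes with an annotated 3′ UTR, 2109 (17.3%) held the 7-base site and 760 (6.25%) the 8-base kind, the median 3′ UTR being 1185 bases long. The 3′ UTR of Pdp2, at 3907 bases the longest of the 10, held no match to these 7 letters. Shorter sites, other transcripts and the coding sequence were not searched. A match or its absence in the 3′ UTR does not by itself show whether the miRNA acts on the mRNA.

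WT/TAC replicate 1 stood apart from the other libraries. Its Myl2, the light chain of ventricular myosin, was at 81.0 FPKM against at least 9735 in each other heart, and its atrial light chains Myl7 and Myl4 were at 8140 and 11725 FPKM. Myl7 was also at 1135 FPKM in WT/TAC replicate 3 and 333 in KO/TAC replicate 2, and below 1 FPKM in the other 3 hearts. The 8 markers of all cardiomyocytes were abundant in every heart, so the label heart held, and their sum was 24322 to 26297 FPKM in WT/TAC and 29400 to 30600 in KO/TAC, without overlap. The ventricular markers Myl2, Myl3 and Irx4 were far lower in WT/TAC replicate 1 than in any other heart. Myh6 and Hopx of the same list did not follow, at 5086 and 216 FPKM there against 3990 and 139 in WT/TAC replicate 2. Of the atrial list, Kcna5 was lowest in WT/TAC replicate 1, at 7.59 FPKM, and Bmp10 was at 0.19. The other atrial markers were highest in that heart. The difference of each of the 10 genes is therefore also given without that heart. All 7 fibroblast markers were called lower in KO/TAC at the limits defined further on, where 6.14% of all tested genes were. Their sum was 470 to 749 FPKM in WT/TAC and 314 to 407 in KO/TAC. In RNA of whole hearts, fewer cells of a type and less RNA per cell cannot be told apart.

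Across the 10 genes the complex was far more abundant than its phosphatases. Pdhb was the highest in both groups, with a mean of 563 ± 124 FPKM in WT/TAC and 640 ± 28.5 in KO/TAC (SD, n = 3 each), and above 98.9% of the genes tested. It was followed by Pdha1 and then Pdk2 in both groups, with no overlap between these 3 genes. Dlat and Pdk4 came next and overlapped each other in both groups, and Pdk4 also reached into the range of Pdk2 in KO/TAC. Pdk1 and then Pdpr followed without overlap. Pdp1, Pdp2 and Pdk3 were the lowest, and the hearts of Pdp1 and Pdp2 overlapped in KO/TAC but not in WT/TAC. The plot of the 10 genes by heart gives these levels.

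**Figure D1:**
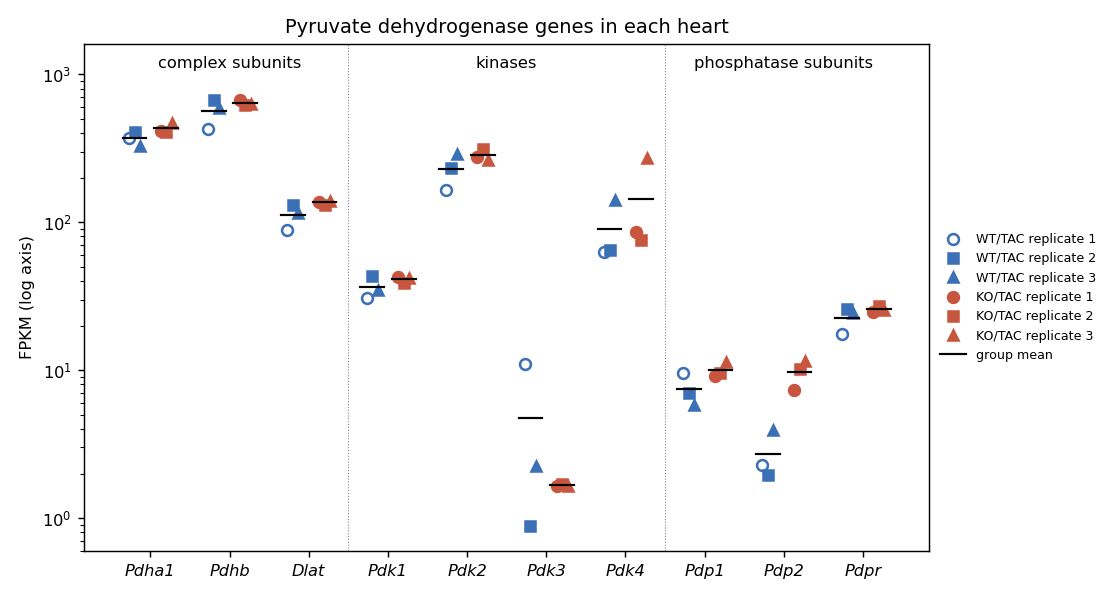
FPKM on a log axis (vertical) of the 10 genes (horizontal) in each heart, with WT/TAC in blue and KO/TAC in red, 1 symbol a replicate, the open circle WT/TAC replicate 1 and the black line the mean of the 3 hearts. Pdp2 is at 1.97 to 3.93 FPKM in WT/TAC and 7.35 to 11.5 in KO/TAC, and Pdk3 is high in the open circle only.

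The largest difference was in Pdp2, which encodes a catalytic subunit of pyruvate dehydrogenase phosphatase, the isoform known for its response to insulin and feeding. It lies on the plus strand of chromosome 8 (104591451 to 104599026 of GRCm38) and has 2 exons. Its level was 2.29, 1.97 and 3.93 FPKM in WT/TAC replicates 1 to 3 and 7.35, 10.2 and 11.5 FPKM in KO/TAC replicates 1 to 3. Every KO/TAC heart was above every WT/TAC heart, the closest pair being WT/TAC replicate 3 and KO/TAC replicate 1. The mean went from 2.73 ± 1.05 to 9.68 ± 2.13 FPKM (SD, n = 3), a ratio of 3.55, and the fitted log2 difference on log2(FPKM + 0.5) was 1.68 ± 0.27 (SE, 95% interval 1.05 to 2.31). Without WT/TAC replicate 1 it was 1.60, and with any 1 heart left out it lay between 1.51 and 1.93. Pdp2 ranked 21 from the top of the 12520 genes by this difference. From the spacing of the lowest values the depth was estimated at 12.8 to 15.9 in units of 1000000 fragments per library, at which the Pdp2 values stand for about 172 to 344 fragments in a WT/TAC heart and 544 to 860 in a KO/TAC heart, so counting error is small beside the spread between hearts.

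Pdp1, on chromosome 4 (11958184 to 11966452, minus strand, 2 exons), encodes the other catalytic subunit, the isoform known to be stimulated by calcium and prevalent in muscle. Its level was 9.57, 6.97 and 5.85 FPKM in WT/TAC and 9.15, 9.50 and 11.4 in KO/TAC. WT/TAC replicate 1 lay among the KO/TAC hearts, while the other WT/TAC hearts were below all 3. The log2 difference was 0.42 ± 0.20 (SE, 95% interval -0.04 to 0.89), and 0.61 without WT/TAC replicate 1.

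Pdpr encodes the regulatory subunit of the phosphatase, which lowers its sensitivity to magnesium. It lies on chromosome 8 (111094630 to 111137074, plus strand, 18 exons) and overlaps 9430091E24Rik on the other strand. It was at 17.5, 26.0 and 24.2 FPKM in WT/TAC and 24.6, 27.3 and 25.4 FPKM in KO/TAC. Apart from WT/TAC replicate 1, the lowest, all hearts lay between 24.2 and 27.3 FPKM. The log2 difference was 0.20 ± 0.17 (SE) with all hearts and 0.03 without that heart.

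The summed level of both catalytic phosphatases was 11.9, 8.94 and 9.78 FPKM in WT/TAC and 16.5, 19.7 and 23.0 in KO/TAC. The groups did not overlap, and the log2 difference of the sum was 0.95, or 0.83 to 1.07 with any 1 heart left out. Pdp2 made up 19.3%, 22.0% and 40.2% of the sum in WT/TAC and 44.6%, 51.7% and 50.2% in KO/TAC. In WT/TAC Pdp1 was the more abundant phosphatase in every heart, and in KO/TAC the ratio of Pdp2 to Pdp1 was 0.80 to 1.07. The higher sum in KO/TAC was therefore for the most part Pdp2.

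Pdk2, the kinase known to be expressed in most tissues, was the main kinase in 5 of 6 hearts. It lies on chromosome 11 (95026258 to 95041354, minus strand, 11 exons) and overlaps the antisense gene Gm11513, and whether the counting used strand is not given in the sources used here. Its level was 165, 231 and 289 FPKM in WT/TAC and 277, 311 and 261 in KO/TAC. The lowest heart was WT/TAC replicate 1, and the groups overlapped. The log2 difference was 0.34 ± 0.21 (SE) with all hearts and 0.13 without WT/TAC replicate 1.

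Pdk4, on chromosome 6 (5483351 to 5496309, minus strand, 11 exons), is the kinase that rises when the heart burns fat. It was at 62.5, 64.8 and 142 FPKM in WT/TAC and 85.2, 76.2 and 272 in KO/TAC. In each group replicate 3 was far above the other hearts, and WT/TAC replicate 3 was higher than KO/TAC replicates 1 and 2. The log2 difference was 0.54 ± 0.54 (SE, 95% interval -0.75 to 1.83) with all hearts. It was 0.33 without WT/TAC replicate 1, and leaving out KO/TAC replicate 3 gave -0.05, so neither a rise nor a fall of Pdk4 was resolved in 3 hearts per group. Its level spanned 4.35-fold over the 6 hearts, against 5.86-fold for Pdp2, where the spread lay mainly between the groups.

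Pdk1, on chromosome 2 (71873224 to 71903858, plus strand, 11 exons), is known as the kinase induced by hypoxia. It was at 30.6, 43.0 and 35.0 FPKM in WT/TAC and 42.9, 38.7 and 41.8 FPKM in KO/TAC. The highest heart of all was WT/TAC replicate 2, and the groups overlapped. The log2 difference was 0.20 ± 0.15 (SE), or 0.08 without WT/TAC replicate 1.

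Pdk3, on the X chromosome (93764607 to 93832201, minus strand, 12 exons), is best known from testis, kidney and brain. It was at 11.03, 0.88 and 2.26 FPKM in WT/TAC and 1.64, 1.71 and 1.66 in KO/TAC. The first of these, in WT/TAC replicate 1, was 6.65 times the median of the other 5 hearts, and the KO/TAC hearts hardly differed. The log2 difference of -0.70 ± 0.70 (SE) turned to 0.15 without that heart. With log2 Myl7 as a covariate it was -0.07. How far the atrial transcripts in that library account for its Pdk3 was not tested.

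The kinases together summed to 269, 339 and 468 FPKM in WT/TAC and 407, 428 and 576 in KO/TAC. WT/TAC replicate 3 lay above KO/TAC replicates 1 and 2, and the log2 difference was 0.41, or 0.22 to 0.62 with any 1 heart left out. Pdk2 held 61.3% to 68.1% of the sum in 4 hearts, 72.7% in KO/TAC replicate 2 and 45.3% in KO/TAC replicate 3, where Pdk4 held 47.1%. Pdk3 held 4.10% in WT/TAC replicate 1 and at most 0.48% elsewhere. The kinase sum was 22.7, 38.0 and 47.9 times the phosphatase sum in WT/TAC and 24.6, 21.8 and 25.1 times in KO/TAC. The ratios of the KO/TAC hearts lay close together and below those of WT/TAC replicates 2 and 3, but WT/TAC replicate 1 lay among them. The log2 difference of the ratio was -0.54, and it was -0.84 to -0.30 with any 1 heart left out.

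**Figure D2:**
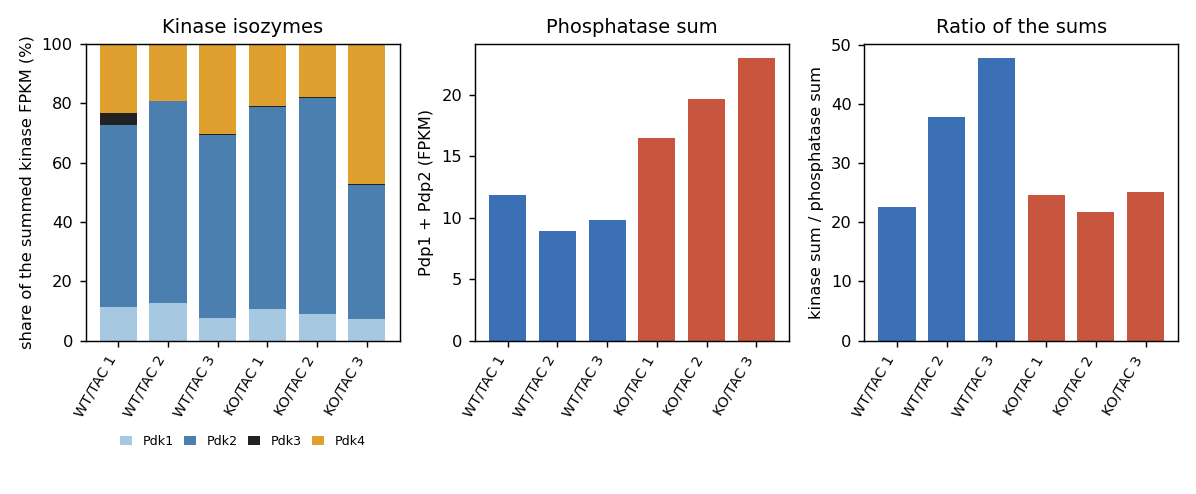
For each heart (horizontal), the share in percent of each kinase in the summed kinase FPKM (left), the summed FPKM of Pdp1 and Pdp2 (middle) and the kinase sum divided by the phosphatase sum (right), with WT/TAC in blue and KO/TAC in red in the last 2 panels and 1 bar a heart. The phosphatase sum is 8.94 to 11.9 FPKM in WT/TAC and 16.5 to 23.0 in KO/TAC, and Pdk4 holds the largest share, 47.1%, in KO/TAC replicate 3.

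Over the 6 hearts the highest level of a subunit of the complex was 1.44 (Pdha1), 1.56 (Dlat) or 1.58 (Pdhb) times its lowest. Pdha1, which encodes the E1α subunit that the kinases phosphorylate, lies on the X chromosome (160122209 to 160138413, minus strand, 11 exons) and overlaps Map3k15 on the other strand. It was at 372, 408 and 328 FPKM in WT/TAC and 411, 407 and 471 FPKM in KO/TAC. WT/TAC replicate 2 and KO/TAC replicate 2 were almost equal, so the groups overlapped. The log2 difference of this gene, the only one of the 10 with a miR-27 site, was 0.22 ± 0.13 (SE, 95% interval -0.09 to 0.54), and 0.23 without WT/TAC replicate 1.

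Pdhb, the E1β subunit on chromosome 14 (8165996 to 8173025, minus strand, 10 exons), was at 426, 670 and 593 FPKM in WT/TAC and 673, 622 and 625 FPKM in KO/TAC. The lowest heart was WT/TAC replicate 1, and the others lay close together. The log2 difference of 0.21 ± 0.18 (SE) was 0.02 without that heart, and in the 5 other hearts with log2 Myl7 as a covariate it was -0.005. Pdhb stood at 1.15 to 1.81 times Pdha1 over the 6 hearts.

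Dlat, the E2 acetyltransferase core on chromosome 9 (50634633 to 50659780, minus strand, 14 exons), was at 89.0, 130 and 116 FPKM in WT/TAC and 138, 131 and 139 FPKM in KO/TAC. The groups did not overlap, but KO/TAC replicate 2 exceeded WT/TAC replicate 2 by about 1 FPKM. The log2 difference was 0.30 ± 0.16 (SE, 95% interval -0.07 to 0.67), and 0.15 without WT/TAC replicate 1. The ratio of Pdhb to Dlat stayed between 4.51 and 5.17 in all 6 hearts, including the WT/TAC heart in which both were lowest.

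**Figure D3:**
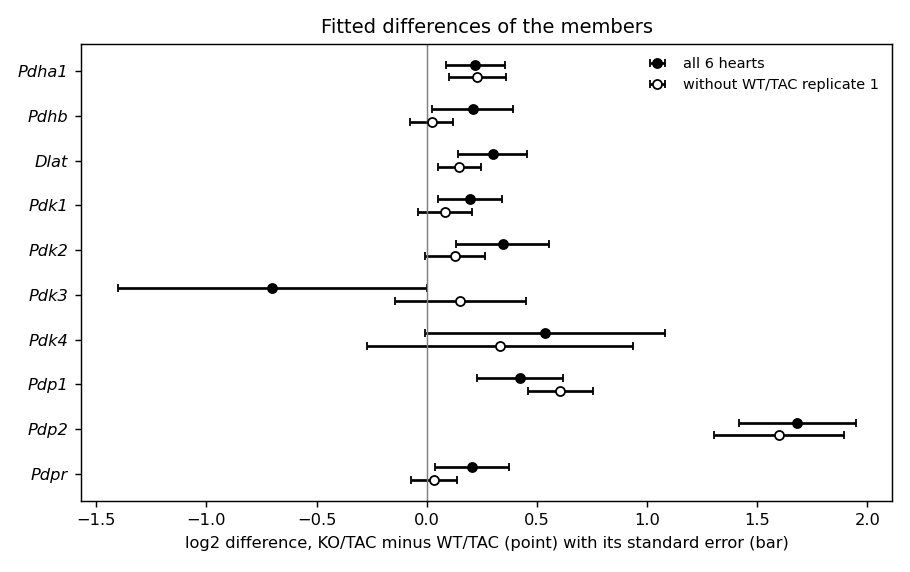
Fitted log2 difference, KO/TAC minus WT/TAC, on log2(FPKM + 0.5) (horizontal) of the 10 genes (vertical), with bars of 1 standard error, for all 6 hearts (filled) and without WT/TAC replicate 1 (open). Pdp2 is at 1.68 and 1.60, Pdk3 moves from -0.70 to 0.15, and the other 8 lie between 0.02 and 0.61.

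A gene was called when its p before adjustment was under 0.05 and its fitted change was at least 1.2-fold, the pair of limits that the study's list of changed genes shows. Of the 10 genes 1 was past them, Pdp2, where 4.94% of the 12520 tested genes were called higher in KO/TAC. None was called lower, where 6.14% of tested genes were. For 2 of 10, Pdp2 and Dlat, all KO/TAC hearts were above all WT/TAC hearts, as for 8.46% of tested genes, and for none were they all below, as for 9.79%. Because this contrast chose the genes, nothing is read from these counts. The median log2 difference was 0.26 over the 10 and -0.005 over all tested genes, and 0.15 and 0.02 without WT/TAC replicate 1. In that reduced set 2 of 10 were called, Pdp2 and Pdp1, against 7.52% of tested genes, and none lower, against 7.47%. Which members beside Pdp2 were past the limits depended on the heart left out. Without WT/TAC replicate 2 they were Dlat and Pdk1, where 790 of the 12520 tested genes were called higher. Without WT/TAC replicate 3 Pdk2 was, where 648 were.

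The genes around the complex were taken as 7 lists with 94 genes, of which 92 were tested. These lists too were chosen with earlier results of these data known. Their counts and differences are therefore a description, and no independent enrichment is read from them. Of these 26 were called higher and 1 lower, where 4.94% and 6.14% of all tested genes were, and the median log2 difference was 0.30. Without WT/TAC replicate 1 the median was 0.16, and 21 were called higher and 2 lower, where 7.52% and 7.47% of all tested genes were. None passed an adjusted p under 0.05 (Benjamini-Hochberg) by limma in all hearts, as 0.016% of all tested genes did, or by the 2-sample test per gene. An unadjusted p under 0.05 was reached by 27 in the first and 10 in the second. In the 5 hearts other than WT/TAC replicate 1 with log2 Myl7 as a covariate, 2 passed the adjusted limit, where 207 of all tested genes did. The number called higher was lowest without KO/TAC replicate 3, at 5. Of the 12520 tested genes 262 were called higher there, against 618 with all hearts. Leaving out KO/TAC replicate 2 gave 13, where 396 of all tested genes were called higher. Leaving out KO/TAC replicate 1 gave 16, where 366 were. With log2 Myl7 as a covariate the number was 15, where 531 were. The sums of the fibroblast markers, of the markers of all cardiomyocytes and of the ventricular and atrial markers did not overlap between the genotypes. Nppa was the largest part of the atrial sum in every heart, at 5647 to 55795 FPKM in WT/TAC and 79.4 to 1114 in KO/TAC. Myl7 followed no such split, at 0.23 FPKM in WT/TAC replicate 2 and 333 in KO/TAC replicate 2. Of the atrial markers 1 of 9 was called, of the ventricular 1 of 5 and of all cardiomyocytes 1 of 8. The part of these markers in the counts of list genes was not tested.

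Of the other subunits of the complex and its cofactor supply, 3 of 12 tested were called higher and none lower. Of all tested genes 4.94% and 6.14% were. Dld, the E3 subunit shared with the other ketoacid dehydrogenases, was at 91.8, 117 and 73.1 FPKM in WT/TAC and 134, 125 and 172 in KO/TAC, a log2 difference of 0.62 ± 0.21 (SE, limma adjusted p = 0.365). Lipt1 and Lipt2, which attach and transfer the lipoyl cofactor of the E2 subunits, differed by 0.51 ± 0.17 and 0.36 ± 0.13. All KO/TAC hearts were above all WT/TAC hearts for each of these 3 genes. The count of 3 became 0 without KO/TAC replicate 3, where 262 of the 12520 tested genes were called higher against 618 with all hearts. With log2 Myl7 as a covariate it was 1, where 531 were. Leaving out KO/TAC replicate 1 gave 1, where 366 were, and leaving out WT/TAC replicate 1 gave 2, where 941 were. Pdhx, the subunit that anchors E3, was not called, with a log2 difference of 0.25 ± 0.16.

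Among 15 genes of pyruvate supply and competing uses, 4 were called higher and 1 lower, where 4.94% and 6.14% of all tested genes were. The 4 became 1 when any 1 of the KO/TAC hearts was left out. Of the 12520 tested genes 262 to 396 were called higher there, against 618 with all hearts. The 4 became 1 by the 2-sample test per gene, where 455 were, and 2 with log2 Myl7 as a covariate, where 531 were. Mpc2, a subunit of the mitochondrial pyruvate carrier, was at 194, 270 and 252 FPKM in WT/TAC and 357, 327 and 383 in KO/TAC, without overlap (log2 difference 0.59 ± 0.16, SE, limma adjusted p = 0.288). Ldhb, the lactate dehydrogenase subunit typical of heart, was at 693, 1078 and 1187 FPKM in WT/TAC and 1462, 1470 and 1523 in KO/TAC (log2 difference 0.63 ± 0.21, SE). Slc16a3, a lactate exporter of glycolytic cells, was at 2.33 to 2.42 FPKM in WT/TAC and 1.18 to 1.60 in KO/TAC, a fall by 0.60 ± 0.15 on the log2 scale (SE, limma adjusted p = 0.278). Mpc2 and Slc16a3 stayed past the limits in each alternative in which they were tested, whereas Ldhb lost the call when any of the KO/TAC hearts was left out, and its log2 difference was 0.39 without WT/TAC replicate 1. Mpc1, the partner of Mpc2, also did not overlap between the groups but missed the limits (log2 difference 0.36 ± 0.16).

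Of 9 genes for the fates of acetyl-CoA, 3 were called higher and none lower, where 4.94% and 6.14% of all tested genes were. The count was 1 without WT/TAC replicate 1, where 7.52% of all tested genes were called higher. It was 0 without KO/TAC replicate 3, where 262 of the 12520 tested genes were, against 618 with all hearts. The 3 genes were Acat1, the mitochondrial thiolase of ketone bodies and isoleucine, with a log2 difference of 0.52 ± 0.15 (SE), Mlycd, which removes malonyl-CoA, with 0.59 ± 0.23, and Crat, which buffers acetyl-CoA as acetylcarnitine, with 0.48 ± 0.20. Acat1 lost the call only without KO/TAC replicate 3. Mlycd and Crat lost it in 7 and 9 of 18 alternatives, among them leaving out WT/TAC replicate 1.

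Calcium in the mitochondrion activates the phosphatase that Pdp1 encodes. None of 9 genes of mitochondrial calcium uptake was called in either direction, where 11.1% of all tested genes were. The median log2 difference of the 9 was -0.04. Mcur1, a regulator of the uniporter, was at 16.5, 25.0 and 25.3 FPKM in WT/TAC and 26.2 to 28.0 in KO/TAC.

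Of 17 transcription factors and cofactors known to act on Pdk4 none was called, where 11.1% of all tested genes were. The median log2 difference of the 17 was 0.09. Ppargc1a, which encodes the coactivator PGC-1α, was at 10.5, 8.94 and 9.97 FPKM in WT/TAC and 11.1, 13.46 and 12.04 in KO/TAC. Its groups did not overlap, and its log2 difference of 0.30 ± 0.13 (SE) missed the limits in the limma fit. It passed them in 8 of 18 alternatives, among them leaving out WT/TAC replicate 1 and the 2-sample test per gene. The study's own list of changed genes holds Ppargc1a as higher in KO/TAC. For Pparg the difference was 0.43 ± 0.28, and 0.13 without WT/TAC replicate 1.

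Pdk4 is itself a target of PPARα. Of 23 other PPARα targets in fatty acid use, 13 were called higher and none lower, where 4.94% and 6.14% of all tested genes were. All 23 differences were positive, as for 6165 of the 12520 tested genes, and the median of the 23 was 0.66. Ucp3, a mitochondrial carrier induced by fatty acids, was at 5.71, 4.23 and 17.0 FPKM in WT/TAC and 19.4, 23.9 and 48.0 in KO/TAC, a log2 difference of 1.84 ± 0.54 (SE, limma adjusted p = 0.32). Acot2 and Ehhadh, enzymes of mitochondrial acyl-CoA hydrolysis and peroxisomal oxidation, differed by 1.04 ± 0.33 and 0.62 ± 0.20. In Ucp3, as in Pdp2 and Pdk4, WT/TAC replicate 3 was the highest WT/TAC heart and KO/TAC replicate 3 the highest KO/TAC heart. The median was 0.40 without WT/TAC replicate 1. The count of 13 became 1 without KO/TAC replicate 3, where 262 of the 12520 tested genes were called higher against 618 with all hearts. Without KO/TAC replicate 2 the count was 6, where 396 were. It was 11 in the hearts other than WT/TAC replicate 1, where 7.52% of tested genes were called higher. With log2 Myl7 as a covariate the count was 6, where 531 of all tested genes were called higher. By the 2-sample test per gene it was 1, where 455 were.

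The sister complexes that use the same lipoyl chemistry were compared last. The 7 genes had a median log2 difference of 0.60, or 0.25 without WT/TAC replicate 1. Of them 3 were called higher and none lower, where 4.94% and 6.14% of all tested genes were. All 3 were in branched-chain ketoacid breakdown, and each passed the limits in all alternatives run. Bckdhb, its E1β subunit, was at 23.4, 30.8 and 30.2 FPKM in WT/TAC and 41.3, 45.6 and 49.5 in KO/TAC (log2 difference 0.69 ± 0.15, SE, limma adjusted p = 0.251). Ppm1k, the phosphatase that activates that complex as Pdp1 and Pdp2 activate pyruvate dehydrogenase, was at 12.6, 8.01 and 8.77 FPKM in WT/TAC and 15.8, 21.16 and 20.99 in KO/TAC (log2 difference 0.96 ± 0.20, SE, limma adjusted p = 0.251). Dbt, its E2 subunit, differed by 0.76 ± 0.20. Its kinase Bckdk was at 39.3 to 46.8 FPKM in WT/TAC and 39.7 to 49.1 in KO/TAC, a log2 difference of 0.05 ± 0.13.

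**Figure D4:**
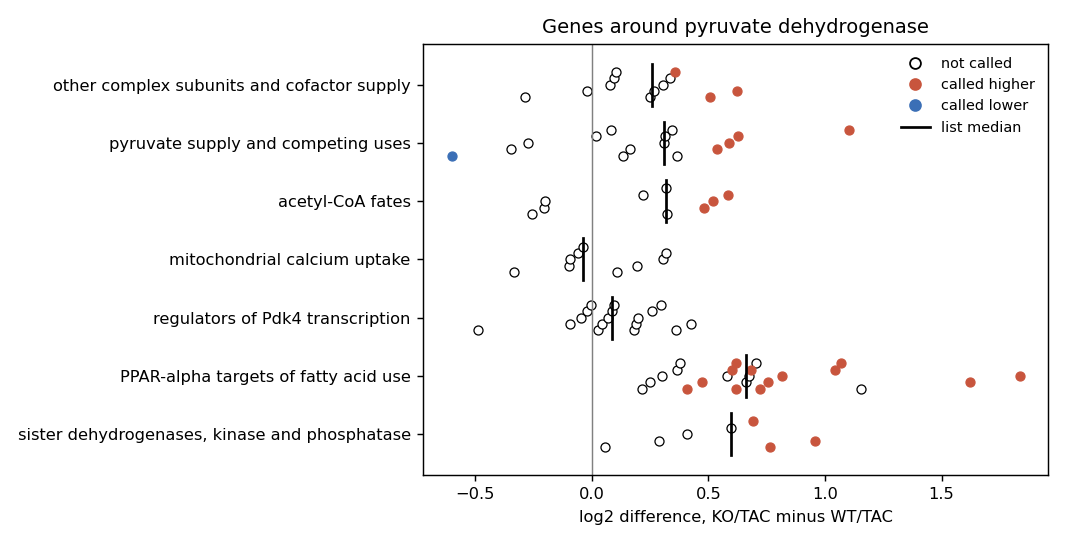
Log2 difference, KO/TAC minus WT/TAC (horizontal), of the 92 tested genes of the 7 lists (vertical), 1 point a gene, filled red where called higher and blue where called lower, with a black line at the list median. The PPARα targets lie to the right of 0 in 23 of 23 genes, with 13 called, and none of the calcium uptake or Pdk4 regulator genes is called.

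The genes whose profile over the 6 hearts was closest to that of Pdp2 were sought among the 11522 genes whose mean reached 1 FPKM, by the root mean square difference of centred log2(FPKM + 0.5). The 5 closest were Lgals4 (0.15), Lingo3 (0.25), Cryba4 (0.26), Il15 (0.36) and Acaa2 (0.37), where the median gene was at 0.93. Lgals4, which encodes the lectin galectin-4, was at 7.31, 5.27 and 10.8 FPKM in WT/TAC and 15.7, 21.9 and 26.7 in KO/TAC, nearly parallel to Pdp2 in every heart. Acaa2 encodes a thiolase of mitochondrial fatty acid oxidation, and Il15 a cytokine. The PPARα targets Acot1 and Ucp3 ranked 6 and 13 in this order, and Ppm1k 36.

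The genes closest to Pdk4 were others. They were Angptl4 (0.36), 2210407C18Rik (0.40), Slc37a2 (0.42), Etfbkmt (0.45) and Mlycd (0.48), where the median gene was at 0.79. Angptl4, an inhibitor of lipoprotein lipase that fatty acids induce, was at 0.79, 1.66 and 5.42 FPKM in WT/TAC and 1.83, 2.74 and 8.91 in KO/TAC, highest in replicate 3 of each group as Pdk4 was. Acot2 was close to both, ranking 20 for Pdp2 and 13 for Pdk4. These distances rest on 6 hearts and on the same libraries, and carry no test.

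**Figure D5:**
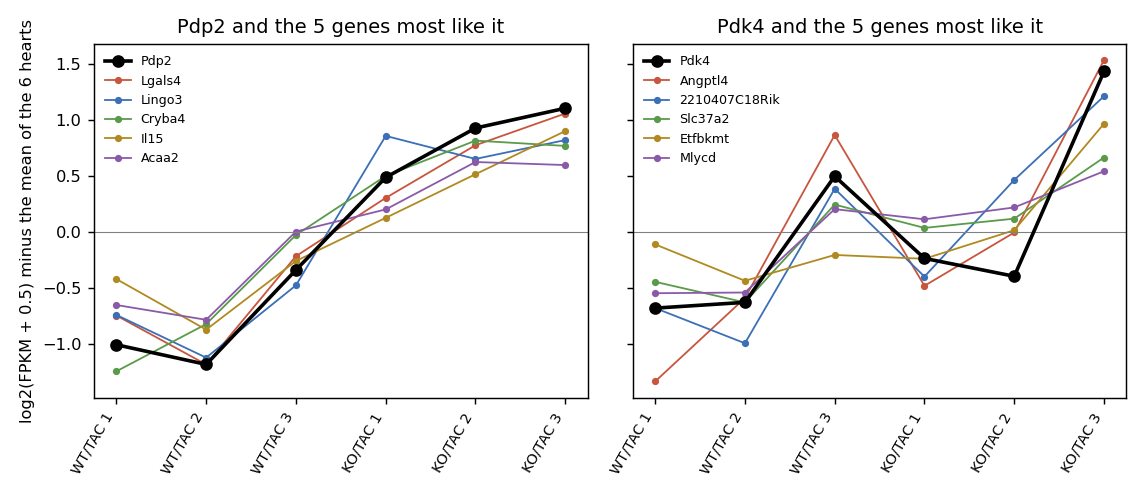
Log2(FPKM + 0.5) minus the mean of the 6 hearts (vertical) in each heart (horizontal) for Pdp2 with the 5 genes most like it (left) and Pdk4 with the 5 most like it (right), the gene itself in black and lines joining the points of a gene. The Pdp2 profiles separate the groups, and in the Pdk4 panel replicate 3 of KO/TAC is the highest heart for each gene.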

How the data were processed

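Heart RNA of 6 mice was sequenced by the authors with a stranded kit. For each heart the authors deposited a table of FPKM with 2 decimals, with the same 17570 Entrez Gene IDs, of which 17441 matched a symbol in RefSeq (GRCm38.p6) and 129 did not. According to the submitters' processing notes, HISAT2 2.0.5 and StringTie 1.3.3 were run, and the sources used here do not give their settings. Genome positions given in the text are those of GRCm38 and were not used to obtain expression values.

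The members and the context lists were chosen with earlier results of these data known. limma 3.58.1 in R 4.3.3 (lmFit, then eBayes with its trend option) was applied to log2(FPKM + 0.5) of the 12520 genes whose mean FPKM reached 0.5 in the 6 hearts, two-sided, with Benjamini-Hochberg adjustment over all of them. A fold change on this scale understates that of low genes. Summaries used Python 3.11.15, pandas 2.3.3, numpy 2.4.6, scipy 1.17.1 and matplotlib 3.10.9. The fit was tested on simulated data. A count test was not used because FPKM are not counts. The total FPKM of a library was 519562 to 553716, and depth was estimated from the step between FPKM of 0.03 to 0.4 in 781 genes of single transcripts up to 1500 bases. At the depth with the highest share, 56.3% to 68.0% of these low values lay within 0.2 of a whole step. Chance gives 40.0% at a depth fixed in advance and more at the best of many depths, so the depths are approximate. Replicates are hearts of separate libraries, numbered in the labels.

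Named genes are the 10 members, up to 3 called genes of each list by smallest p or else the 2 with the smallest p, the 5 genes most like Pdp2 and most like Pdk4, and the markers Myl2, Myl3, Myl7 and Myl4. A gene that this rule names is not reported here. Pdhx, Mpc1, Bckdk, Irx4, Myh6, Hopx, Kcna5, Bmp10, Nppa, Acot1 and the other ranks of likeness were named after their values were seen. The fits were repeated without the filter, at a minimum mean of 5 FPKM, with pseudocounts of 0.1 and 1, and with median ratio scaling, quantile normalization, no variance trend, robust eBayes, a 2-sample test per gene, the replicate number as a block, log2 Myl7 as a covariate and each heart left out. The fit of 5 hearts with that covariate was added after the data were seen.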

Additional observations from a re-analysis of the deposited data

How the results depend on the processing

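No called value turned its direction in the 18 alternatives. The number of members called, 1, became 2 by median ratio scaling, by quantile normalization, with the replicate block and in 5 hearts with log2 Myl7 as a covariate, and ranged from 1 to 3 with a heart left out. Beside Pdp2, the one added by these settings was Pdp1, or Pdk4 with the block. For all genes, the 618 called higher became 1381 in the 5 hearts with the covariate, 355 with the replicate block and 262 to 941 with a heart left out. The 618 became 653 by median ratio scaling, 706 by quantile normalization, 455 by the 2-sample test and 531 with log2 Myl7 as a covariate. The 769 called lower became 1248 in those 5 hearts, 510 at a minimum mean of 5 FPKM, which tests fewer genes, and 369 to 1171 with a heart left out. The 2 genes under the adjusted limit became 207 in the 5 hearts, 1 by the 2-sample test, median ratio scaling, quantile normalization and a pseudocount of 0.1, 0 with log2 Myl7 as a covariate, at a minimum mean of 5 FPKM, with no filter, with a pseudocount of 1 and with the replicate block, and 0 to 14 with a heart left out. The number of list genes called higher, 26, became 9 by the 2-sample test, 15 with log2 Myl7 as a covariate and 5 to 33 with a heart left out. The 1 called lower became 2 in the 5 hearts, 0 at a minimum mean of 5 FPKM and 1 to 3 with a heart left out. The cause of these changes was not tested. Pdk3 was not tested at a minimum mean of 5 FPKM.

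Hearts of the same number did not deviate together, with correlations of -0.29, -0.57 and -0.35 over 12520 genes. The highest correlation, 0.49, was between WT/TAC replicate 2 and KO/TAC replicate 1, both without Myl7. Between WT/TAC replicate 3 and KO/TAC replicate 2, both with Myl7, it was 0.44. With the replicate block the SE of Pdk4 went from 0.54 to 0.19. Whether hearts of the same number shared an operation or a batch was not tested. With the replicate block none of Dld, Lipt1 and Lipt2 was called, where 355 of all tested genes were called higher. The 95% intervals of the members rest on 3 hearts per group, and those of most members included 0. The genes were chosen with this contrast known, so whether an interval includes 0 is a description and tests no member.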
